A study of Mus musculus with 60 samples.

Results

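Drd2 (ENSMUSG00000032259) encodes the dopamine D2 receptor, the main target of the antipsychotic drug haloperidol. It was followed here through its row in the deposited gene table, 1 of 9066 genes, and through its 8 rows in the deposited exon table, out of 114691 exon rows. The measurements came from polyA RNA-Seq of hand-dissected striatum of 60 HS-CC mice (heterogeneous stock, collaborative cross), with 1 library per mouse. The animals descended from generations bred selectively for their response to haloperidol, and each carried a label for its catalepsy (the immobility that the drug produces). The 28 females comprised 15 responders to haloperidol and 13 non-responders, and the 32 males 15 and 17. Age and the haloperidol schedule are not given in the sources used here, and no untreated or unselected group was analysed. Whether responders and non-responders came from the same or from separately selected lines is not given either.

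The D2 receptor is a G protein-coupled receptor that acts through inhibitory G proteins, lowering cyclic AMP and opening G protein-gated potassium channels. In striatum it is known from the medium spiny neurons of the indirect pathway, which also make enkephalin and an adenosine receptor, from cholinergic interneurons and, as an autoreceptor, from the terminals of dopamine neurons. Alternative splicing of a short internal exon gives a long form, with extra amino acids in the third intracellular loop, and a short form without them.

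On GRCm38, Drd2 lies on the plus strand of chromosome 9 from 49340627 to 49408177. Its 8 exon rows, given in the table by their mm9 start positions from 49148732 to 49215006, had the same spacing as the 8 exons of the only Drd2 transcript in GENCODE M21. The sixth exon row, at mm9 position 49211299 and chr9:49403194-49403280 on GRCm38, is the one that separates the long and short receptor forms. It is 87 bases long and wholly coding, which makes 29 codons with 0 bases left over, so that its removal keeps the reading frame. The sequence is shown from the GENCODE M21 transcript because the splice comparison rests on this exon. Capitals mark exon 6, and the 24 lower-case bases on each side are the end of exon 5 and the start of exon 7.
Drd2 exon 6 with its junctions: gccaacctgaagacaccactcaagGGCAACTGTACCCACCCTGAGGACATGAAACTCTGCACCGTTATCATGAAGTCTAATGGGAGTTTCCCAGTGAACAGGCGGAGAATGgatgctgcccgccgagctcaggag

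Depth differed between the libraries, and this bears on the exon rows most. Recovered reads (whole reads worked back from the deposited values) were between 4913122 and 21872744 per mouse. For the comparisons below, 43 libraries of at least 10000000 reads are called deep and the other 17 shallow. The coverage of transcripts also differed, and a 3' bias score over 5209 genes stood highest in mice 63 (1.48), 5 (0.91), 4 (0.68) and 62 (0.48). Values without these 4 libraries are given where leaving them out changed a call or moved a value most. The shallow libraries were those of mouse 26 and of mice 41 to 56. In mice 41 to 56 the score was between -0.32 and -0.17, lower than in every deep library (lowest -0.16, mouse 22). Depth, coverage and this run of mice therefore cannot be told apart in comparisons of deep with shallow libraries. As a check of the tissue, 14 of 15 listed genes of striatal projection neurons were in the table, whereas the 7 cholinergic interneuron markers and Drd1, Drd3, Drd4, Drd5 and Th were not analysed here.

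The Drd2 value (reads multiplied by an upper quartile factor per library) ranged from 3065 to 7189 over the 60 mice, with a median of 4714 and a mean of 4665 ± 917 (SD, n = 60). The highest mouse was 2.35-fold above the lowest. This spread, a coefficient of variation of 19.7%, was far above the 1.64% that counting reads alone would give, since 1325 to 9735 reads lay behind each value. Of 8159 genes averaging at least 50, 69.8% had a lower coefficient of variation than Drd2 and the median was 15.9%. Drd2 thus varied somewhat more between mice than most genes. Mice 29 (3065) and 13 (3104), both female non-responders, were lowest, and mice 5 (7189, female non-responder) and 62 (6699, male non-responder) were highest, so both ends of the range came from non-responders. Mice 5 and 62 were also among the 4 libraries of strongest 3' bias.

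Catalepsy responders and non-responders had overlapping Drd2 values. The 30 responders ranged from 3131 to 6098 with a median of 4834 and a mean of 4709 ± 886 (SD). The 30 non-responders ranged from 3065 to 7189 with a median of 4635 and a mean of 4620 ± 961 (SD). The groups were spread over nearly the same interval, and the non-responders reached further at both ends. On the scale of log2(value + 1), with sex as a covariate, responders differed from non-responders by 0.028 (SE 0.074, interval of 2 SE from -0.12 to 0.18), with an adjusted p of 0.999 by limma. Over all 8535 genes fitted, 9 were called at an adjusted p under 0.05 (0.105%), and Drd2 was not one of them. Within deep libraries the difference was 0.067 (SE 0.089) and within shallow libraries it was -0.089 (SE 0.11), neither past its SE. In bulk striatum, fewer cells of a type and less RNA per cell cannot be told apart.

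**Figure D1:**
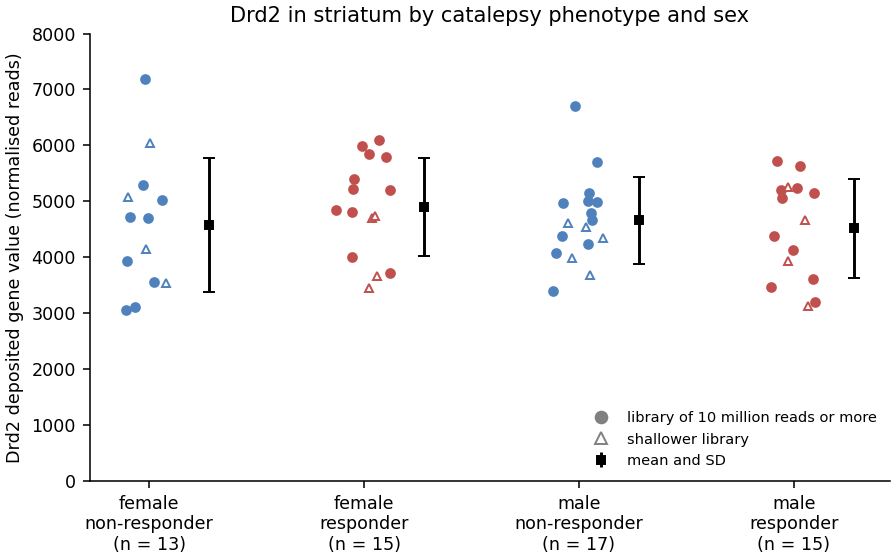
Deposited Drd2 gene value (normalised reads, axis from 0) for each of 60 mice in the 4 groups of sex and catalepsy phenotype. Filled circles are libraries of at least 10000000 recovered reads, open triangles shallower ones, and black squares with bars the mean and SD. The 4 groups overlap throughout, and the highest point, 7189, is a female non-responder.

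No difference by sex passed the test either. The 28 females had a median Drd2 value of 4777 (from 3065 to 7189) and the 32 males one of 4635 (from 3131 to 6699). Males differed from females by -0.035 on the log2 scale (SE 0.074, interval from -0.18 to 0.11, adjusted p = 1 by limma), where 3 of 8535 genes were called (0.0351%). By sex and phenotype, the medians were 4704 in female non-responders, 4850 in female responders, 4609 in male non-responders and 4669 in male responders. The responder effect in males minus that in females was -0.18 (SE 0.15, unadjusted p = 0.238, adjusted p = 1 by limma). For this interaction 0 of 8535 genes were called (0%), with 48 at an unadjusted p under 0.05. In deep libraries alone it was -0.31 (SE 0.17, adjusted p = 0.999).

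The 8 exon rows of Drd2 did not carry reads in proportion to their length. Exon 8, which ends the gene and of whose 1277 bases 191 are coding, had a mean value of 2625 ± 613 (SD, n = 60) and a mean share of 56.02% of the summed exon values, with 50.1% of the bases. Exon 7, the coding exon after exon 6, had 839 ± 161 and 18.03%. Exon 5 had 353 ± 72.3, exon 2, with the start codon, 457 ± 86.1, exon 4 176 ± 34.3 and exon 3 138 ± 31.04. The noncoding exon 1, of 98 bases, had 39.2 ± 12.2, and the 87-base exon 6 had 38.5 ± 9.65. Per 100 bases, exon 7 stood highest at 253 and exons 1 (39.95) and 6 (44.3) lowest, and the other 5 exons lay between 126 and 206.

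The low value of exon 6 has to be read against its length. Per base, exon 6 had 0.202 times the mean of exons 5 and 7. Across 8510 internal exons of 2696 genes whose rows matched the annotation, the same ratio depended on exon length in this table. Its median was 0.0054 for exons of 40 to 59 bases, 0.049 for 60 to 79, 0.37 for 80 to 95, 0.66 for 96 to 109 and 1.04 for 130 to 159. Among 671 exons of nearly the same length as exon 6 (within 7 or 8 bases), the median was 0.369, and 21.2% lay below exon 6. The lengths of the exons on both sides, here 191 and 331 bases, were not matched. Exon 6 was thus in the lower part of what exons of its length showed, and the table gives no share of long and short transcripts. The aligner placed reads without gaps and reads across junctions are not counted separately here, so the part of skipping in this value was not tested.

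**Figure D2:**
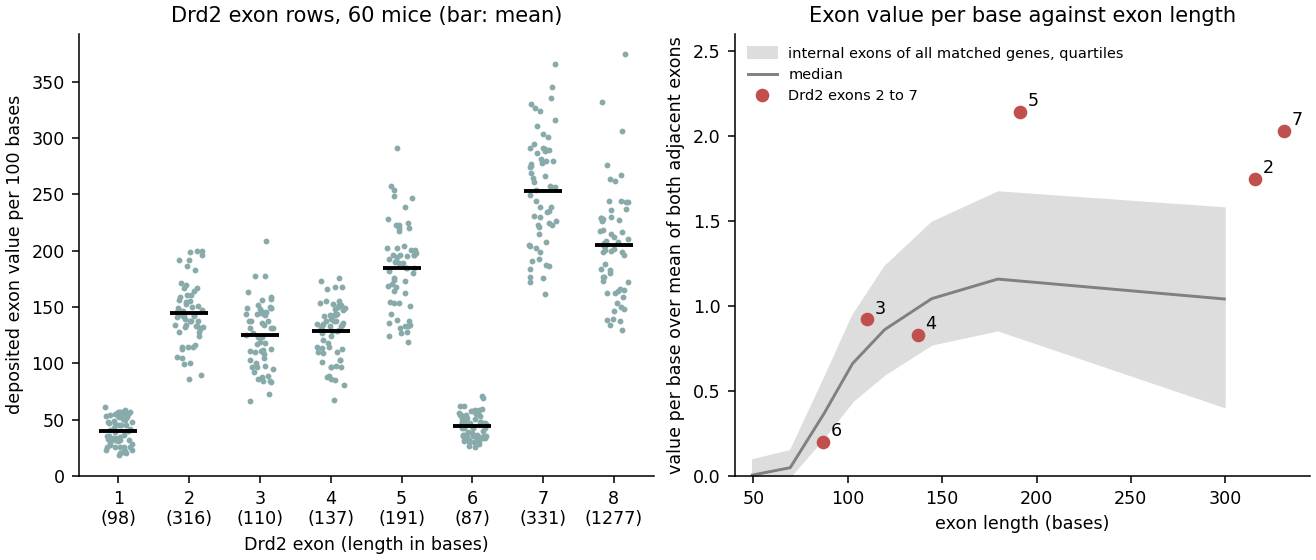
Left, deposited exon value per 100 bases for each of the 8 Drd2 exons (length in bases in brackets) in 60 mice, with the mean as a bar. Right, value per base of each internal Drd2 exon over the mean of the exons on both sides, against exon length in bases, with the median and quartiles of 8510 internal exons. Exons 1 and 6 are lowest on the left, and on the right the ratio of all exons falls steeply under 100 bases, where exon 6 lies at 0.202.

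Most exon rows followed the gene. Over 60 mice, the log2 value of exon 7 correlated with the summed other exons at r = 0.92, and exons 5, 8, 4, 2 and 3 at 0.81, 0.78, 0.73, 0.72 and 0.66. Without the 4 libraries of strongest 3' bias these 6 values rose to between 0.83 and 0.95. Exons 6 (0.58) and 1 (0.40) followed the rest least. They are also the rows with fewest reads, a median of 38.9 for exon 6 and 36.5 for exon 1. The share of exon 6 varied with a coefficient of variation of 21.7%, where counting alone would give 18.2% to its value, and the share of exon 1 with 28.9% against 18.3%.

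One library set the extremes of the exon profile. In mouse 63, a female responder, exon 8 made up 73.2% of the Drd2 value, against a median of 55.7%, and exons 1 (0.345%), 2 (4.70%), 3 (1.26%), 4 (2.02%), 5 (4.52%), 6 (0.501%) and 7 (13.5%) were each at their lowest share of all mice. Mice 5 and 4 followed, with 66.6% and 62.6% in exon 8. The usage of exon 8 (log2 of its value over the sum of the other exons) correlated with the 3' bias score of the library at r = 0.88, and at 0.50 without the 4 libraries. Exon 2, nearest to the start among the well-covered exons, correlated with the score at -0.84, and at -0.46 without them.

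Neither the level nor the usage of any Drd2 exon differed by catalepsy phenotype at an adjusted p under 0.05. For levels, 12 of 67578 exon rows were called (0.0178%), and the 8 Drd2 rows had differences from -0.063 (exon 2, SE 0.072) to 0.11 (exon 6, SE 0.091), each with an adjusted p of 1 by limma. For usage, 14 of 67134 exon rows were called (0.0209%). The largest Drd2 differences in usage were -0.10 for exon 2 (SE 0.056, unadjusted p = 0.0791), -0.091 for exon 1 (SE 0.11) and 0.081 for exon 6 (SE 0.078, interval from -0.074 to 0.24), again with an adjusted p of 1. Without the 4 libraries, exon 2 usage differed by -0.081 (SE 0.034, unadjusted p = 0.0209, adjusted p = 0.625 by limma). Over 202 fits of Drd2 or one of its exon rows, including all alternatives, the smallest adjusted p was 0.625.

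The exon that separates the receptor forms was also compared with its neighbours alone. The exon 6 value as a percentage of exons 5 and 7 summed was between 2.08% and 6.16%, with a median of 3.20%. In responders it ranged from 2.11% to 6.16% with a median of 3.35%, and in non-responders from 2.08% to 4.64% with a median of 3.11%. The groups overlapped from 2.11% to 4.64%, and the highest value, 6.16%, was that of a male responder with a shallow library. The mean log2 ratio was -4.89 ± 0.32 (SD, n = 30) in responders and -4.97 ± 0.26 (SD, n = 30) in non-responders, a difference of 0.081 (SE 0.075, two-sided permutation p = 0.287 with 100000 resamples). The SD of the log2 ratio over all mice was 0.29, and counting noise alone would give 0.27. With the depth classes pooled, little of the spread between mice thus exceeded counting error. The median number of reads on exon 6 was 41.6 in deep and 20.1 in shallow libraries. The percentage had a coefficient of variation of 14.96% in deep and 30.4% in shallow libraries, and counting noise was not worked out for each class. Within deep libraries the difference was 0.10 (permutation p = 0.132), and within shallow ones it was 0.043 (permutation p = 0.842).

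After these values were seen, exon 6 was also compared between the sexes. Exon 6 was 3.01% ± 0.522 of exons 5 and 7 in females (SD, n = 28) and 3.48% ± 0.768 in males (SD, n = 32). Its usage was higher in males by 0.19 on the log2 scale (SE 0.078, unadjusted p = 0.0157, adjusted p = 1 by limma), and 0 of 67134 exon rows were called (0%), with 1767 at an unadjusted p under 0.05. The difference was larger in the shallow libraries, though the contrast of depth classes was not tested. Depth cannot be told apart here from the run of mice 41 to 56 and their lower 3' bias score. In shallow libraries, 8 females ranged from 2.08% to 3.48% and 9 males from 3.18% to 6.16%, and the usage difference was 0.60 (SE 0.15, unadjusted p = 0.000871, adjusted p = 0.935 by limma). In deep libraries, 20 females had a median of 3.25% and 23 males one of 3.15%, and the difference was 0.033 (SE 0.079). The responder effect on exon 6 usage in males minus that in females was 0.21 (SE 0.15, adjusted p = 1 by limma), with 0 of 67134 rows called (0%). Among deep libraries, exon 6 stood at 3.45% ± 0.47 (SD) in 11 male responders and 2.94% ± 0.37 in 12 male non-responders. Deep females had 3.11% ± 0.52 in 11 responders and 3.17% ± 0.43 in 9 non-responders. The phenotype difference within a single sex was not tested.

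**Figure D3:**
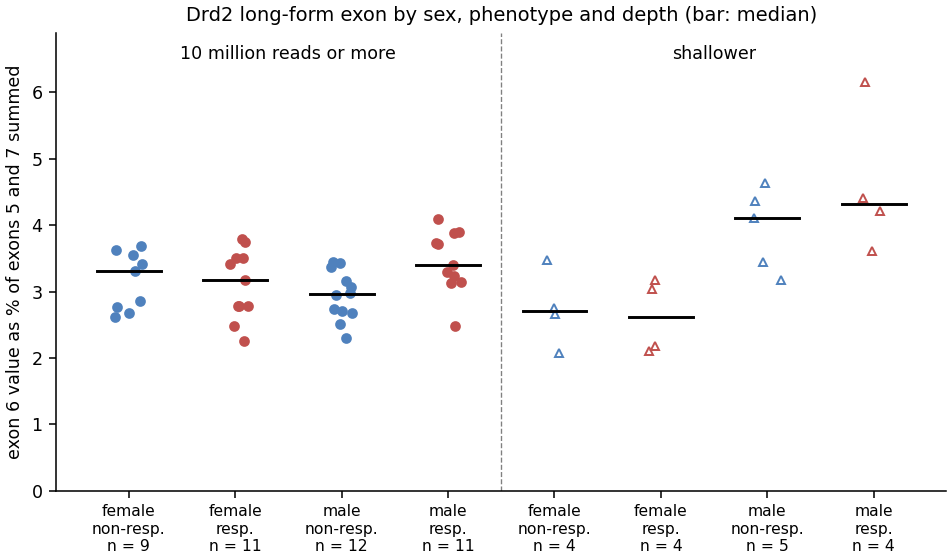
Exon 6 value as a percentage of exons 5 and 7 summed (axis from 0) for each mouse, by sex and phenotype, in deep (left) and shallow (right) libraries, with the median as a bar. In shallow libraries the 9 males lie between 3.18% and 6.16% and the 8 females between 2.08% and 3.48%, while deep females (median 3.25%) and males (3.15%) overlap.

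Over mice, Drd2 was most like genes of the striatal projection neurons. Likeness was Pearson's r on log2(value + 1) over 60 mice, among 8158 other genes averaging at least 50, for which the median r was 0.050, with 37 genes at 0.7 or more. The 5 highest were Adora2a (r = 0.91), the adenosine receptor of indirect pathway neurons, Pde1b (0.89), a calcium-activated phosphodiesterase, Ppp1r1b (0.88), which encodes the dopamine-regulated phosphatase inhibitor DARPP-32, Penk (0.86), the precursor of enkephalin, and Rasd2 (0.85), the small GTPase Rhes. The 5 lowest were Tcf4 (-0.74), a basic helix-loop-helix transcription factor, Vash1 (-0.71), Ildr2 (-0.70), Dtx4 (-0.70) and the kinase gene Cdk14 (-0.70). Leaving out the 2 mice farthest from the median of Drd2 gave between 0.83 and 0.90 for the first 5 and between -0.69 and -0.64 for the last 5. Within responders Adora2a correlated with Drd2 at 0.89 and within non-responders at 0.93, and Penk at 0.88 and 0.84.

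**Figure D4:**
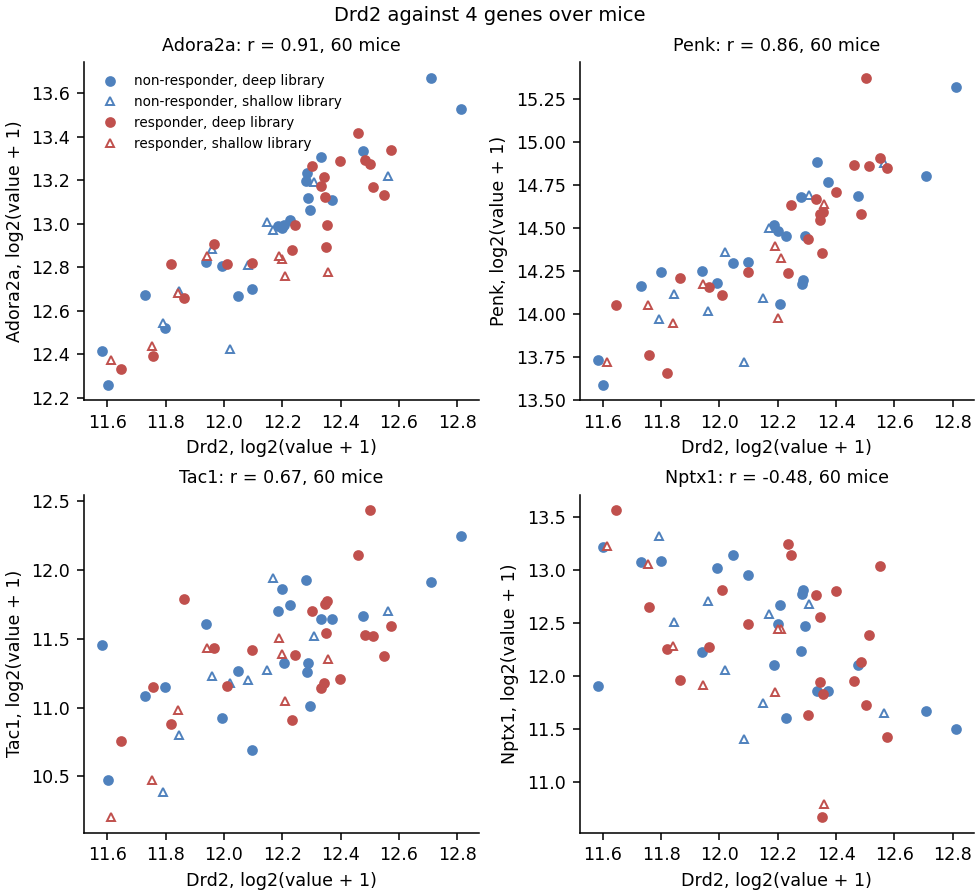
Log2(value + 1) of Adora2a, Penk, Tac1 and Nptx1 against that of Drd2, 1 point per mouse (60 mice), coloured by catalepsy phenotype, with open triangles for shallow libraries. Adora2a and Penk rise with Drd2 most closely (r = 0.91 and 0.86), Tac1 less so (0.67), and the cortical marker Nptx1 falls (-0.48).

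Correlations with 86 genes of the lists were tested as 1 family by two-sided permutation with 100000 resamples, in which 49 (36 positive and 13 negative) had an adjusted p under 0.05. Such correlations were common in the whole table. At the largest unadjusted p called in the lists (permutation p = 0.0197), 34.1% of all 8158 genes passed, and with the adjustment made over all of these genes 32% were called, among them 46 of the 86. Without the 4 libraries of strongest 3' bias, 37 of the 49 were called with the same sign, and with 3' bias and the cortical marker level held 30 were. Of 6 listed genes of indirect pathway neurons, 4 were in the table. Adora2a (r = 0.91, Spearman's rho = 0.88), Penk (0.86, rho 0.87) and Gpr6 (0.83, rho 0.81), an orphan receptor of these neurons, each had an adjusted permutation p of 4.3e-05, which follows from 1e-05, the smallest p these resamples can give. The kainate receptor gene Grik3 had r = -0.27 (rho -0.19, adjusted permutation p = 0.0573), and 0.40 with 3' bias and the cortical marker level held (adjusted permutation p = 0.0039). Of 8 listed genes of direct pathway neurons, 3 were in the table, Tac1 (substance P precursor, r = 0.67, rho 0.60), Ebf1 (0.50, rho 0.46) and Sfxn1 (0.36, rho 0.40), with adjusted permutation p-values of at most 0.00848. Sfxn1 was not called in deep libraries (0.25, adjusted permutation p = 0.16), without the 4 libraries (0.29, adjusted permutation p = 0.055) or with 3' bias and the cortical marker level held (0.039, adjusted permutation p = 0.84). All 3 correlated less with Drd2 than Adora2a, Penk and Gpr6 did, but had higher r than Grik3. The difference between the lists was not tested. In length-scaled levels (value per kilobase of exon), Drd2 averaged 1831 ± 360 (SD, n = 60), below Penk (13436 ± 3772), Ppp1r1b (7618 ± 1714) and Adora2a (2613 ± 566), and above Gpr6 (904 ± 236) and Tac1 (805 ± 246).

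Of 15 genes expressed in striatal projection neurons of both pathways, 14 were in the table and had a median r of 0.73 with Drd2. Of these, 13 had an adjusted p under 0.05, beside 34.1% of all genes at the same unadjusted p. Gnal, the stimulatory G protein subunit of striatum, had r = 0.058 (rho 0.32) over all mice, and 0.63 without the 4 libraries (adjusted permutation p = 4.1e-05), where all 14 were called. When the mean log2 level of this list was held fixed, partial r was 0.69 for Adora2a, 0.68 for Penk and 0.53 for Gpr6, and 0.29 for Tac1, 0.023 for Ebf1 and 0.16 for Sfxn1. When 3' bias and the cortical marker level were held as well, it was 0.48, 0.46 and 0.11 for the first 3 and -0.21, 0.29 and -0.23 for the last 3. For Grik3, the remaining indirect pathway gene measured, partial r was -0.27 with the list level held. It was 0.38 with 3' bias and the cortical marker level held as well. These partial values were added after the data were seen.

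Genes of D2 receptor coupling and regulation moved with Drd2 in both directions. Of 29 listed, 26 were in the table with a median r of 0.010, of which 6 were positive and 7 negative at an adjusted p under 0.05, beside 34.1% of all genes in either direction. The positive genes were Ppp2r2a (r = 0.82), a regulatory subunit of the phosphatase PP2A, Rgs9 (0.77), a GTPase-activating protein for G proteins, its partner Gnb5 (0.76), Rgs8 (0.51), the receptor-interacting protein gene Caly (0.48) and Akt1 (0.39). The negative ones were the receptor kinases Grk3 (-0.69) and Grk2 (-0.39), the subunits of the G protein-gated potassium channel Kcnj6 (-0.62), Kcnj3 (-0.60) and Kcnj9 (-0.51), the calcium channel gene Cacna1d (-0.43) and Arrb1 (-0.43), an arrestin. The G protein genes Gnai2 (0.23), Gnai3 (0.086), Gnao1 (-0.0078) and Gnaz (-0.18) did not pass. Of the 13 genes called, Akt1 (0.19, adjusted permutation p = 0.23) and Cacna1d (-0.18, adjusted permutation p = 0.26) were not called without the 4 libraries. With 3' bias and the cortical marker level held, Akt1 (0.025), Kcnj6 (-0.24), Kcnj9 (-0.15) and Cacna1d (0.062) were not called, whereas Grk3 was at -0.53 and Ppp2r2a at 0.80. In the same setting Gnao1 was at 0.62 (adjusted permutation p = 3.7e-05) and Gnai3 at -0.40 (adjusted permutation p = 0.004), with Gnaz at 0.29 and Gnai2 at -0.22. When the striatal list level was held too, only Ppp2r2a (0.36), Rgs8 (0.41) and, with changed sign, Kcnj9 (0.44) of the 13 were called. Grk3 was then at -0.12 (adjusted permutation p = 0.57).

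**Figure D5:**
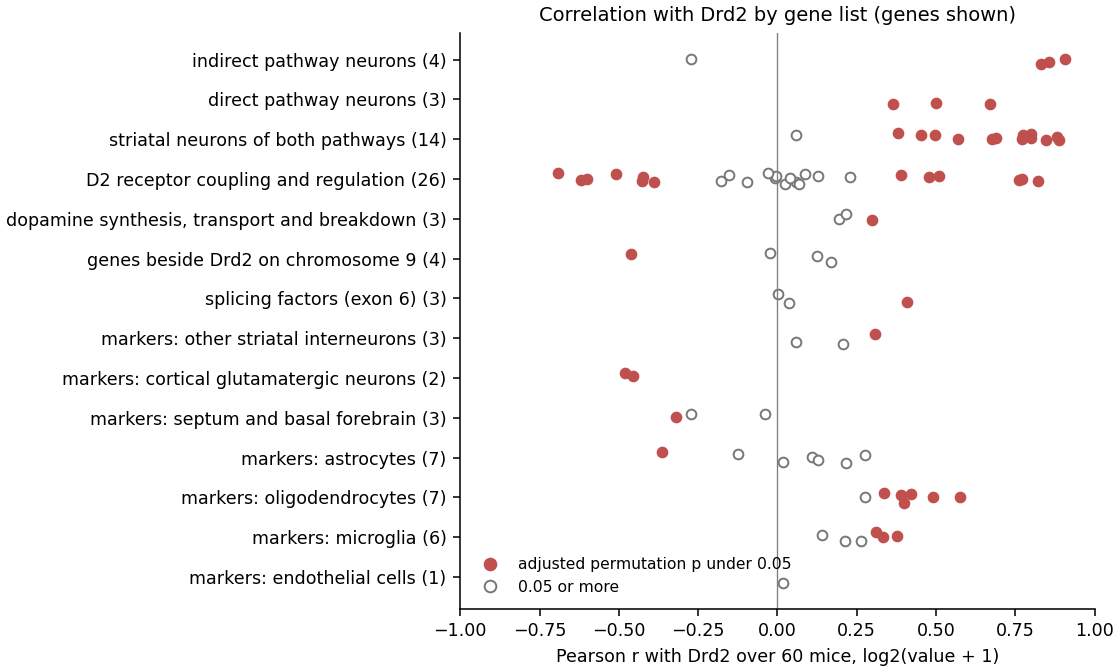
Pearson r with Drd2 over 60 mice for each gene of the lists, 1 row per list with the number of genes shown in brackets. Filled points have an adjusted permutation p under 0.05. The 14 genes of striatal neurons lie between 0.058 and 0.89, the cortical markers Tbr1 and Nptx1 at -0.45 and -0.48, and the 26 coupling genes on both sides of 0.

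Markers of some other cell types moved with Drd2. Of 10 listed cortical glutamatergic markers, 3 were in the table. Of these, Tbr1 (r = -0.45) and Nptx1 (-0.48) were lower where Drd2 was higher, and the mean log2 level of the 3 correlated with Drd2 at r = -0.48 (rho = -0.51, adjusted permutation p = 0.00018), at -0.47 within deep and -0.62 within shallow libraries. Without the 2 mice farthest from its median, r was -0.52. The summed value of these markers was between 1948 and 16337 in responders and between 3825 and 14546 in non-responders. All 7 oligodendrocyte markers measured had positive r with Drd2 (median 0.40, Cnp highest at 0.57), 6 with an adjusted p under 0.05, and summed to between 99668 and 272733 in responders and between 93880 and 252387 in non-responders. The median of this list was 0.43 in deep libraries, 0.11 in shallow ones with 0 called, 0.31 without the 4 libraries and 0.024 with 3' bias and the cortical marker level held. Leaving out the 4 libraries left 4 of the 7 called. Of the other marker lists, 3 of 6 microglial genes were called, all positive (median 0.29, and 0 called without the 4 libraries). Of 7 astrocyte genes (median 0.11, with 5 above 0) 1 was called, and it was negative (Slc1a2, -0.36). The 1 called of 3 genes of septum and basal forebrain was negative too (Lhx2, -0.32). Of other interneurons 1 of 3 was called (Sst, 0.31), and 0 of 1 endothelial gene. At the same unadjusted p 34.1% of all genes passed, so 1 of 7 or 1 of 3 is not above that share. These calls shifted without the 4 libraries. Slc1a2 (-0.23) and Sst (0.13) were then not called, and Lhx2 (-0.46) still was. Slc4a4 (0.37, astrocytes), Nos1 (0.48, other interneurons) and Gpr165 (0.31, septum and basal forebrain) were called instead, all positive. The 3' bias score correlated with Drd2 at r = 0.41 (rho = 0.35, adjusted permutation p = 0.000795), but at 0.18 without the 4 libraries and 0.085 within shallow ones. Recovered reads did not (r = 0.18, adjusted permutation p = 0.176). With 3' bias and the cortical marker level held, 44 of the 86 list genes were called, the median r of the striatal list was 0.78, and 28 of the 86 changed sign.

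Genes beside Drd2 on chromosome 9 mostly had low r with it. Of 11 listed neighbours, 4 were in the table with a median r of 0.050. Zbtb16, a zinc finger transcription factor, was at -0.46 (adjusted permutation p = 0.000631), but at -0.30 without the 4 libraries (adjusted permutation p = 0.051), -0.071 within shallow libraries and -0.21 with 3' bias and the cortical marker level held (adjusted permutation p = 0.17). None of the other 3 was called. Of 4 splicing factors reported for the alternative exon, 3 were in the table, and 1, Hnrnpm, was called (r = 0.41 with the Drd2 level, and 0.26 with 3' bias and the cortical marker level held, adjusted permutation p = 0.083). Of 10 genes of dopamine synthesis, transport and breakdown, 3 were in the table and 1 was called, Qdpr, which recycles the cofactor of dopamine synthesis (0.30, and 0.11 without the 4 libraries, adjusted permutation p = 0.53). Each of these 3 lists thus had 1 gene called, beside 34.1% of all genes in either direction, and none stood above that share.

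The other listed genes of the pathway were not called by catalepsy phenotype either. Of 87 genes in the lists other than cell type markers, 57 were fitted, Drd2 among them. None was called in either direction, against 0.105% of all genes, and 3 had an unadjusted p under 0.05, where 554 of all 8535 genes (6.49%) did. The 3 were Sfxn1 (log2 difference 0.13, SE 0.050), Gnai3 (0.10, SE 0.045) and Hnrnpm (0.092, SE 0.041), with adjusted p-values of 0.454, 0.671 and 0.654 by limma. The median difference of the 57 genes was -0.010, beside -0.0033 over all genes. The genes most like Drd2 were equally close to 0, with Adora2a at -0.010 (SE 0.081), Penk at 0.028 (SE 0.098) and Ppp1r1b at -0.035 (SE 0.081). Of the marker lists, 0 genes were called, and the lowest adjusted p was 0.338, for the astrocyte gene Aldh1l1 (-0.16, unadjusted p = 0.00459).

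In the 3 kinds of network built from these tables, Drd2 held different positions. Coexpression joins genes by the correlation of their values. Cosplicing and CoSplicEx join them by the Mantel correlation of distances between mice over 1770 pairs, computed from exon values as cosine distances, which see the proportions of the exons, or as Canberra distances, which also see their level. Connectivity was the sum over 9066 genes of the absolute correlation to the power of 6. That of Drd2 was at percentile 24.2 in coexpression, 87.6 in cosplicing and 18.95 in CoSplicEx. Without the 4 libraries of strongest 3' bias, the cosplicing percentile was 44.8, and the others were 26.1 and 24.2. In deep libraries alone, which include those 4, the cosplicing percentile was 90.7. The cosplicing correlation of Drd2 with Adora2a was 0.90 over all mice, above 97.2% of genes, and 0.0038 without the 4 libraries. With Pde1b it was 0.85 over all mice, above 88.99% of genes, and -0.058 without them. In CoSplicEx, by contrast, Adora2a was at 0.56 in both sets, above 99.97% and 99.96% of genes.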

How the data were processed

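PolyA RNA-Seq of striatum from 60 mice was analysed, with groups taken from the labels for catalepsy and sex. Per the labels and the paper, reads were aligned by the authors with Bowtie 0.12.7 to NCBI m37 (mm9) and summarised on Ensembl 59 gene models. In the deposited gene table the values are a signal, namely read counts multiplied by an edgeR 3.4.2 upper quartile factor, from which whole reads were recovered (100% of values within 0.01 of a whole read, largest deviation 6.54e-05). The deposited exon values are a score, since the authors scaled exon counts likewise and rounded them. Per the paper, the authors filtered genes by mean count and by the network connectivity of their exons. List genes outside the table are not analysed here.

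Fits used limma 3.58.1 (R 4.3.3, trend option) on log2(value + 1) of rows averaging at least 10, with phenotype and sex, and Benjamini-Hochberg adjustment over all rows. Exon usage is log2 of an exon over the sum of the gene's other exons. For the 3' bias score, each gene's log2 exon values, centred on the average mouse, were regressed on exon order scaled to unit length, and the median slope was taken. On simulated data for the responder comparison, 200 genes were changed by 0.5 (log2). The gene fit over 8528 genes recovered 98% of them, with 12 false calls. For exon usage, 200 of 67520 rows were changed by as much and 87.5% were recovered, with 8 false calls outside the genes of those rows. The simulated exon values had no differences in depth or 3' bias between libraries, so they do not cover the shallow libraries. edgeR 4.0.16 and DESeq2 1.42.0 ran on recovered reads. Correlations used numpy 2.4.6 and scipy 1.17.1 in Python 3.11.15, figures matplotlib 3.10.9. Each mouse is 1 library, so precision came from the spread between mice, and counting error covers read sampling only. GENCODE M21 held 8858 of the 9066 identifiers. Named genes were Drd2, the list genes and the 5 most and 5 least like Drd2. The single result of 1 list gene is not reported here. The members and lists were chosen with earlier results of these data known. Alternatives covered normalisation, filter, pseudocount, covariates, depth and left-out libraries.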

Additional observations from a re-analysis of the deposited data

How the results depend on the processing

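Drd2 and its exon rows were not called under any alternative run, and the responder difference in the Drd2 gene value stayed between 0.0051 and 0.067 except in shallow libraries (-0.089). No paired analysis was possible because the labels give the mice no shared replicate numbers. The number of genes called between responders and non-responders was 9, and 23 by DESeq2, 58 with 3' bias as a covariate, 15 with the cortical marker level, 20 with library class, 3 in deep and 0 in shallow libraries (0 by limma, 160 at an unadjusted p under 0.05). Between the sexes it was 3, and 0 in deep libraries. Exon rows called by level were 12, and 72 with 3' bias added, 2 in deep libraries and 27 without mice 63, 5, 4 and 62. By usage they were 14, and 44, 8 and 27 under the same changes. The cause of these shifts was not tested. Exon level differences near 0 changed sign, for exon 3 to 0.036 in deep libraries and 0.029 without the 4 mice, for exon 4 to 0.044 and 0.029 and, with 3' bias, 0.0010, and for exon 5 to 0.0071 and 0.0033. Exon 7 usage changed to -0.021 in deep libraries. Of 86 list genes, 49 correlated with Drd2 at an adjusted p under 0.05, and 31 in shallow libraries, where only 17 mice enter, and 26 with striatal list level, 3' bias and cortical level held. Of the 86, r changed sign for 4 in deep libraries, 13 in shallow ones, 12 without the 4 mice, 28 with 3' bias and cortical level held, 21 with the striatal list level held and 39 with all 3 held. Among the genes singled out, without the 4 mice it did so for Gnai2 (-0.016), Gnai3 (-0.059) and Gnao1 (0.21), the last also in shallow libraries (0.098) and without mouse 63 (0.054). With 3' bias and cortical level held it did so for Grik3 (0.40), Cacna1d (0.062), Gnai2 (-0.22), Gnai3 (-0.40), Gnao1 (0.62), Gnaz (0.29) and Qdpr (-0.088). With the striatal list level held it did so for Pde10a (-0.22), Gnal (-0.39), Rgs8 (-0.0055), Grk2 (0.36) and Gnaz (0.15). With all 3 held it did so for Gnai2 (-0.16), Gnai3 (-0.40), Gnao1 (0.37), Gnaz (0.45), Qdpr (-0.26), Grik3 (0.38), Tac1 (-0.21), Sfxn1 (-0.23), Grk2 (0.10), Kcnj6 (0.23), Kcnj9 (0.44), Cacna1d (0.076), Zbtb16 (0.11), Nptx1 (0.14) and Dtx4 (0.060). The alternatives that hold the striatal list level or leave out mouse 63 alone, the exon comparisons by sex, the correlations over all genes and the network positions were chosen after seeing the data. Reads on exons 1 and 6, at a median under 40, limit what the exon comparisons could detect.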
